A study of Mus musculus with 60 samples.

Results

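The mitochondrial genome of the mouse carries 7 genes for subunits of respiratory complex I: mt-Nd1, mt-Nd2, mt-Nd3, mt-Nd4, mt-Nd4l, mt-Nd5 and mt-Nd6. They were chosen by name, and all 7 were among the 18088 genes of the table and passed the filter on low values. They were measured by RNA sequencing of poly(A)-selected RNA from the prefrontal cortex of 60 C57BL/6J mice on postnatal day 25. The mice were wild type (WT) or carried 1 N2373K allele of Chd8 (Chd8+/N2373K, Het), a gene for a chromatin remodeler linked to autism. Each genotype received vehicle, fluoxetine (a serotonin reuptake inhibitor) or lithium (a mood stabilizer), passed on in the mother's milk from postnatal day 3 to 24. With males and females kept apart this gave 12 groups of 5 libraries, and every group, vehicle included, was of the same strain and age. No source used here names the litters, so some pups may have had the same mother, and a p-value speaks only of the spread among these libraries.

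Complex I is the entry point of the respiratory chain: it takes electrons from NADH, passes them to ubiquinone and pumps protons across the inner mitochondrial membrane. Its mitochondrially encoded subunits form the core of the membrane arm, where the protons are moved, while the matrix arm that binds NADH is made from nuclear genes. The mitochondrial genome is transcribed from both strands into long precursors that are cut apart, mostly at the tRNAs between the genes. mt-Nd6 is the sole protein gene on the light strand, and its mRNA is known in human cells for having no poly(A) tail or only a short stretch of adenines.

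On the mitochondrial chromosome of GRCm38, GENCODE M21 places mt-Nd1 at 2751 to 3707, mt-Nd2 at 3914 to 4951, mt-Nd3 at 9459 to 9806, mt-Nd4l at 9877 to 10173, mt-Nd4 at 10167 to 11544 and mt-Nd5 at 11742 to 13565, all on the plus strand. mt-Nd6 lies at 13552 to 14070 on the minus strand. Each is a single exon. Their transcripts have 957, 1038, 348, 297, 1378, 1824 and 519 bases in the order mt-Nd1, mt-Nd2, mt-Nd3, mt-Nd4l, mt-Nd4, mt-Nd5 and mt-Nd6. The light-strand gene stands apart in its bases: mt-Nd6 is 28.1% G and 5.97% C, whereas the other members have at most 11.6% G and at least 22.1% C.

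The sequences that decide how reads are divided are those shared with another row of the table. mt-Nd3 has a nuclear copy, the unprocessed pseudogene Gm28438 on the minus strand of chromosome 1 at 24612775 to 24613119. Over the 345 bases of the copy, 344 are identical. The first 60 bases of each, and the last 30 of mt-Nd3 beside the last 27 of the copy, are printed 5′ to 3′ from the GENCODE M21 transcripts. Capitals mark the substitution T3C (mt-Nd3 has T at position 3, counted from its first base) and the 3 last bases that the copy lacks.
mt-Nd3, start: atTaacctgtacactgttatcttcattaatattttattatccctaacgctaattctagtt
Gm28438, start: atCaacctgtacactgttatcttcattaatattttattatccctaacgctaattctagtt
mt-Nd3, end: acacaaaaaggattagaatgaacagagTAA
Gm28438, end: acacaaaaaggattagaatgaacagag

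Of the 318 stretches of 31 bases in mt-Nd3, 312 also occur in Gm28438. mt-Nd4l has such a copy too: Gm10222, at 24612407 to 24612700 on the same strand of chromosome 1, is identical over all 294 of its bases and shares 264 of 267 stretches. Gm28439 repeats the first 876 bases of mt-Nd4 and shares 846 of its 1348 stretches, but it is listed at 0 in all 60 libraries. The sources used here do not say how reads were divided between such copies, so mt-Nd3 and mt-Nd4l are uncertain as single rows.

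Neighboring members also share bases with each other. The last 7 bases of mt-Nd4l are the first 7 of mt-Nd4 on the same strand, and the last 14 bases of mt-Nd5 face the last 14 of mt-Nd6 on opposite strands. Capitals mark the shared bases in the 60 bases next to each junction.
mt-Nd4l, end: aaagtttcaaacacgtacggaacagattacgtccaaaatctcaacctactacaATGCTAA
mt-Nd4, start: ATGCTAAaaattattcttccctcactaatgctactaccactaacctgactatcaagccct
mt-Nd5, end: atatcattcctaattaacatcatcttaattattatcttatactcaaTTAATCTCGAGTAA
mt-Nd6, end: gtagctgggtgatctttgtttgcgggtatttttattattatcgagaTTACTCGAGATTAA

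The kit keeps the strand of the RNA, but it is not given whether the counting used it. Without strand, reads from the strand opposite mt-Nd6 could not be told apart from its own.

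Libraries held 24.05 to 31.65 M reads, of which 5.97% to 9.03% fell on mitochondrial genes and 1.96% to 2.96% on the members. Reads listed under nuclear copies of mitochondrial genes are not in these shares. Chd8 stood at 2951 to 3285 in the 30 WT libraries and at 2421 to 3072 in the 30 Het libraries on the deposited normalized scale (reads divided by a size factor per library), so the ranges overlapped. Under vehicle it was lower in Het by 0.21 in males and 0.24 in females on the log2 scale (limma adjusted p 0.04498 and 0.005581). All 10 markers of excitatory cortical neurons were detected in the table. In 16 libraries, from 8 of the 12 groups, markers of the olfactory bulb were high: their score (mean centered log2 level) was at least 0.929, against at most 0.631 in the others. Leaving them out was uneven. It kept 2 of 5 libraries in Het vehicle males and Het fluoxetine females. It kept 3 in Het vehicle females, Het fluoxetine males, WT vehicle females and WT lithium females, and 4 in WT vehicle males and Het lithium males. The other groups kept all 5. Member calls that were lost or gained without these libraries are given beside the results. Striatal marker scores were also high in some libraries: 2.32 in Het fluoxetine female replicate 5 and 1.36 in Het vehicle female replicate 2. In WT males they reached 2.04 in fluoxetine replicate 3 and 1.21 in vehicle replicate 1. The choroid plexus score was 3.68 in WT vehicle male replicate 2. No fit left these libraries out together, and their part in the member results was not tested.

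Levels between genes were compared as the normalized value per kb of transcript. mt-Nd1 was highest with a median of 188566 over the 60 libraries, followed by mt-Nd4 with 154713, mt-Nd2 with 110981, mt-Nd5 with 80616 and mt-Nd4l with 58137. mt-Nd3 followed at 5959 and mt-Nd6 was lowest at 3426. This order held in 60 of 60 libraries at 4 of the 6 steps, in 53 between mt-Nd5 and mt-Nd4l and in 58 between mt-Nd3 and mt-Nd6, so those neighbors did not separate in every library. The largest step was between mt-Nd4l and mt-Nd3, with a median ratio of 10.1. Adding the reads of Gm28438 put mt-Nd3 at a median of 59307 per kb, close to the 58137 of mt-Nd4l without its copy. Since the kit selects polyadenylated RNA, the low level of mt-Nd6 is a level among captured RNA. Even so, mt-Nd6 and mt-Nd3 rested on at least 715 and 1148 reads in every library.

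The design asks what the Chd8 allele changes in the members and what either drug changes in each genotype. Differences are given as log2(value + 1) with their standard error (SE), for 5 against 5 libraries unless stated. They came from limma fitted across 17807 genes, and a member was called at a Benjamini-Hochberg adjusted p under 0.05. The SE rests on a spread per gene shared by all 12 groups, so it does not measure the spread of the compared libraries alone. Under vehicle the genotypes did not separate any member: 0 of 7 were called by limma in males, where 0.0168% of all tested genes were, 0 of 7 in females, where 0.0225% were, and 0 of 7 over both sexes, where 0.0562% were. None had an unadjusted p under 0.05 in these 3 comparisons, and edgeR and DESeq2 also called 0. Over both sexes the difference Het minus WT ran from −0.05 ± 0.08 for mt-Nd2 to 0.10 ± 0.11 for mt-Nd3. Males and females did not separate a member either, with 0 of 7 called over the whole design and 0 at an unadjusted p under 0.05, beside 0.14% of all genes.

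**Figure D1:**
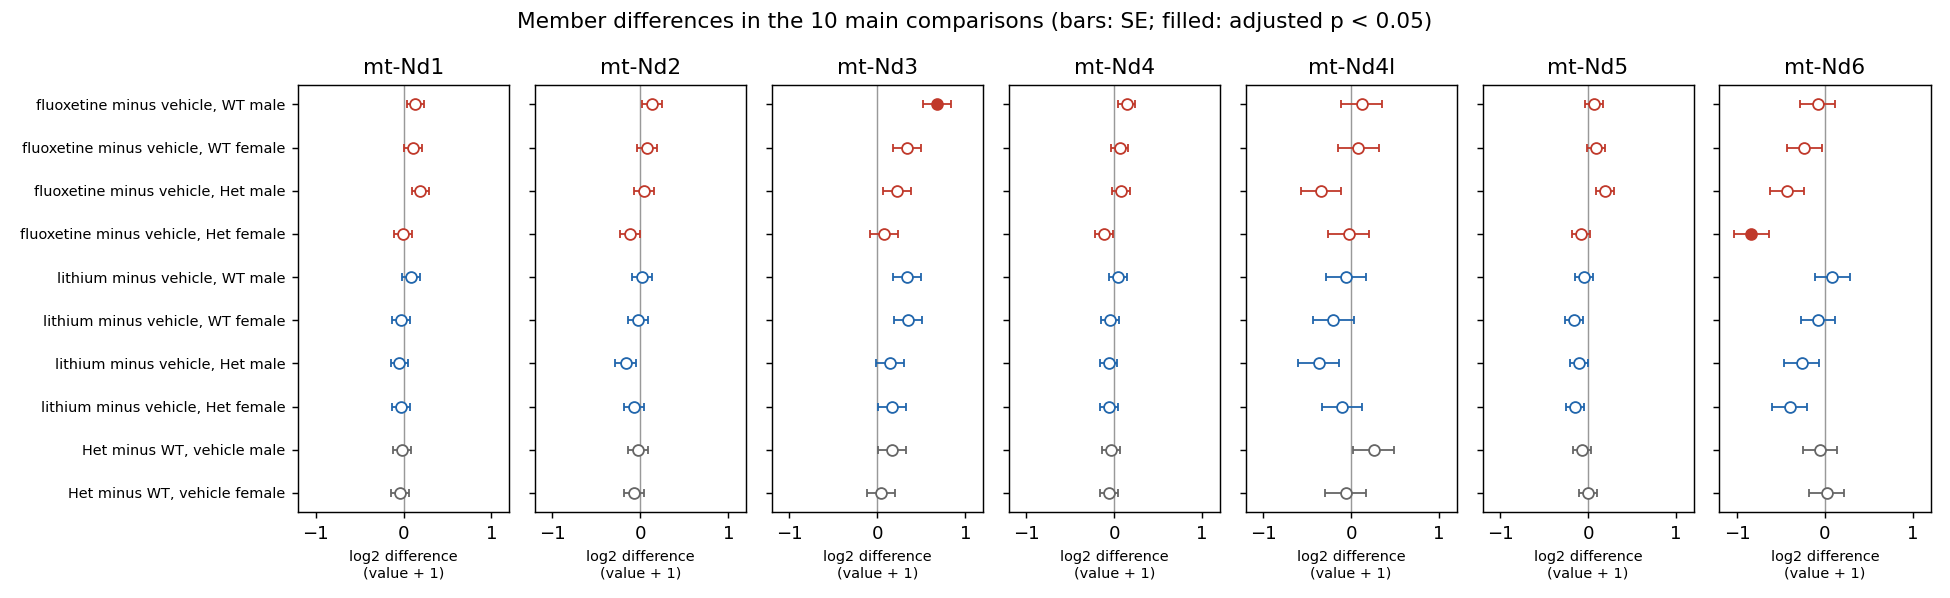
Differences of the 7 members in the 10 main comparisons, on the log2(value + 1) scale, each point 5 against 5 libraries with its SE as a bar. The SE rests on the spread shared by all 12 groups, not on the compared libraries alone. Filled points passed an adjusted p of 0.05: mt-Nd3 with fluoxetine in WT males (0.68) and mt-Nd6 with fluoxetine in Het females (−0.84), while open points did not.

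In Het females mt-Nd6 was lower under fluoxetine than under vehicle. mt-Nd6 encodes a membrane-arm subunit next to the site where ubiquinone enters. Its normalized values were 2913, 1383, 2767, 2150 and 1658 in the 5 Het vehicle females and 841, 1432, 874, 1768 and 1171 in the 5 Het fluoxetine females. All 5 treated libraries lay below the vehicle mean of 2174 ± 669 (SD, n = 5), and 3 of them lay below every vehicle library. The groups overlapped, however, since the treated libraries at 1432 and 1768 exceeded the lowest vehicle library at 1383. The fall was −0.84 ± 0.20 with an adjusted p of 0.002843 (limma), and mt-Nd6 was the 1 member called of 7, where 15.1% of all genes were called. Without any 1 of these 10 libraries it ran from −0.99 to −0.72 and stayed called, while a fit on these 10 libraries alone gave an adjusted p of 0.06308 and called 0 members.

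Het males went the same way without passing the test. Vehicle values were 1766, 1700, 2545, 1920 and 1945, and fluoxetine values were 2007, 1765, 1460, 1257 and 980. The treated library at 2007 sat above 4 of the vehicle libraries, the one at 1765 lay within the vehicle range, and 3 lay below it. The difference of −0.43 ± 0.20 had an adjusted p of 0.1057, 0 of 7 members were called with 1 at an unadjusted p under 0.05, and 22.7% of all genes were called. DESeq2 and edgeR called 0 as well. Without the treated library at 2007 the difference was −0.55 with an adjusted p of 0.04291. Over both sexes of Het mice mt-Nd6 fell by 0.63 with an SE of 0.14 and an adjusted p of 0.0003921, as 1 of 7 members called beside 32.9% of all genes.

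In WT mice mt-Nd6 under fluoxetine stood at 1934 ± 278 in males and 1792 ± 423 in females (SD, n = 5), against 2077 ± 525 and 2084 ± 355 under vehicle. These differences were −0.08 ± 0.20 and −0.23 ± 0.20 and were not called. The contrast of the fluoxetine effect in Het minus that in WT was −0.48 ± 0.20 over both sexes, with an unadjusted p of 0.01929 and an adjusted p of 0.152, so the effects of the genotypes were not shown to differ. Compared directly under fluoxetine, Het minus WT was −0.50 ± 0.14 over both sexes (adjusted p 0.02383), as 1 of 7 members called beside 7.33% of all genes. That call was lost without Het female replicate 3, Het male replicate 5, WT female replicate 2 or WT male replicate 1 of the fluoxetine groups, with an adjusted p up to 0.06428. Without Het fluoxetine male replicate 1, mt-Nd2 (−0.25, adjusted p 0.02981) and mt-Nd4 (−0.21, adjusted p 0.03214) were called as well, and without Het fluoxetine female replicate 4 mt-Nd2 was (−0.24, adjusted p 0.04455). It was also lost without the 16 libraries high in olfactory bulb markers, at −0.30 with an adjusted p of 0.2566, and in a fit of the groups compared alone, with an adjusted p of 0.09922.

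**Figure D2:**
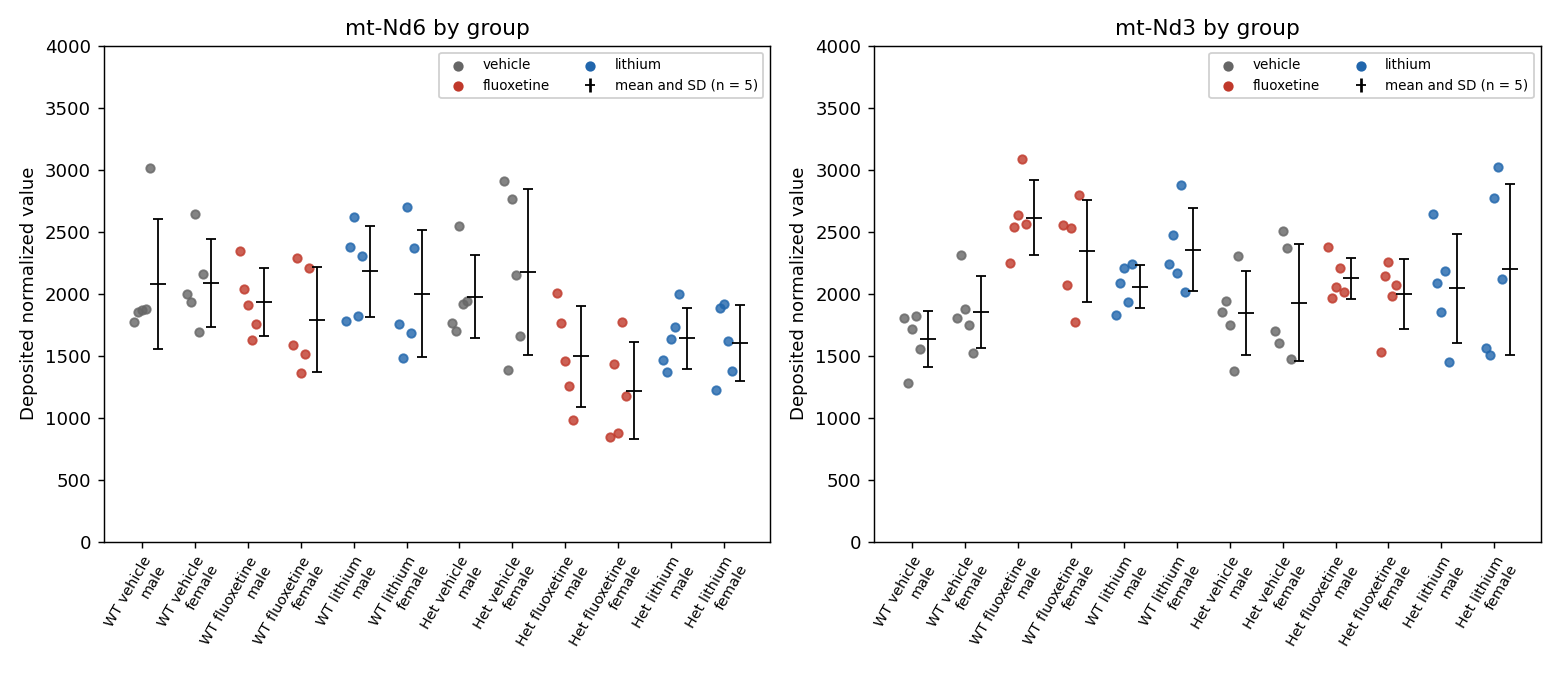
Deposited normalized values of mt-Nd6 (left) and mt-Nd3 (right) in the 12 groups: each point is a library, colored by treatment, and the bar to its right is the mean and SD (n = 5). mt-Nd6 is lowest in Het fluoxetine females, at 1217 ± 391, and mt-Nd3 is highest in WT fluoxetine males, at 2612 ± 302.

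Averaged over both genotypes and sexes, fluoxetine against vehicle (20 libraries each) gave −0.40 ± 0.10 for mt-Nd6, adjusted p 0.00139. This was 1 of 2 members called in that comparison, where 33.6% of all genes were called. Het against WT over all treatments (30 libraries each) gave −0.29 ± 0.08, adjusted p 0.04718, as the only member called by limma beside 1.54% of all genes. This call did not hold widely: leaving out 1 library at a time kept it in 20 of 60 fits, and edgeR called 0. Without the 16 libraries high in olfactory bulb markers the difference was −0.15 (adjusted p 0.3542), and with the leptomeningeal marker score described next as a covariate it was −0.22 (adjusted p 0.09196). For lithium, the mt-Nd6 differences in Het mice were −0.27 ± 0.20 in males and −0.40 ± 0.20 in females. By limma 0 of 7 members were called with lithium in each of the 4 sets of 5 against 5 libraries, where 0.0786% of all genes were called for males and 0.118% for females among WT mice, and 2% and 0.629% among Het mice. DESeq2 and edgeR called 0 in these Het males. At an unadjusted p under 0.05 there was 1 member in each set except Het males, which had 0. In the WT sets this was the mt-Nd3 row, and in Het females it was mt-Nd6. In WT mice mt-Nd6 differed with lithium by 0.08 ± 0.20 in males and −0.08 ± 0.20 in females. Without Het vehicle female replicate 2 the lithium difference over both sexes of Het mice was −0.41 with an adjusted p of 0.04743. Without the 16 libraries high in olfactory bulb markers mt-Nd6 was called with lithium in Het females (−0.71, adjusted p 0.02691), in Het mice of both sexes (−0.56, adjusted p 0.03156) and over the whole design (−0.31, adjusted p 0.0418). That fit held 3 vehicle and 5 lithium libraries of Het females, and 2 and 4 of Het males. The comparisons of fluoxetine and of lithium share the vehicle libraries.

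Markers of other cell types moved with mt-Nd6. Leptomeningeal fibroblasts are the cells of the thin membranes over the cortex, and all 9 of their markers were in the table with none at 0. Their summed level was 5295 to 10169 in Het vehicle females and 4936 to 6399 in Het fluoxetine females. In that comparison 15.1% of all genes were called in either direction. Of the 9 markers 7 fell, among them the anion transporter gene Slc22a6 by 0.88 and the matrix genes Lum by 0.91 and Col3a1 by 0.84. The collagen gene Col1a2 fell by 0.53. Over both sexes of WT mice, an average and not females alone, 0 of 9 changed, where 8.2% of all genes were called. In the Het females 5 of the 10 endothelial markers fell, including the receptor gene Tek by 0.44 and the tight-junction gene Cldn5 by 0.32. Their summed level ran from 9138 to 13548 under vehicle and from 8478 to 10422 under fluoxetine. Of the 8 RNAs kept in the nucleus 5 fell, including Malat1 by 0.62 and Meg3 by 0.31, with summed levels of 239433 to 311448 and 175065 to 243712. Myelin genes went the other way, with 9 of 15 higher and a list median of 1.09. The part of these markers in the mt-Nd6 result was not tested. The covariate fit given next cannot decide it, because the leptomeningeal score itself differed between the groups compared. Its median was 0.50 in Het vehicle females and −0.47 in Het fluoxetine females. In bulk tissue fewer cells of a type and less RNA per cell cannot be told apart.

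Across the 60 libraries mt-Nd6 correlated with the leptomeningeal score at Pearson r = 0.66 and Spearman rho = 0.66, and at r = 0.64 without the 2 libraries farthest from the median score. Each had a permutation p of 1e-05, the smallest that 100000 permutations can give, and adjusted values of 7e-05 and 8.4e-05 over the 84 relations computed between members and marker lists. Within groups, on deviations from the group means, r was 0.59. Relations with the endothelial score (r = 0.64) and the score of nuclear-retained RNAs (r = 0.50) were also positive. That with the striatal score was negative (r = −0.29 and rho = −0.42, adjusted permutation p 0.0466 and 0.00267). With the leptomeningeal score as a covariate, a fit added after the data were seen, mt-Nd6 differed by −0.42 ± 0.18 in Het females given fluoxetine, with an adjusted p of 0.1906. Over both sexes of Het mice the same fit gave −0.29 ± 0.13 with an adjusted p of 0.1229, and over the whole design −0.25 ± 0.09 with an adjusted p of 0.02519. For Het against WT under fluoxetine it gave −0.22 with an adjusted p of 0.505.

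**Figure D3:**
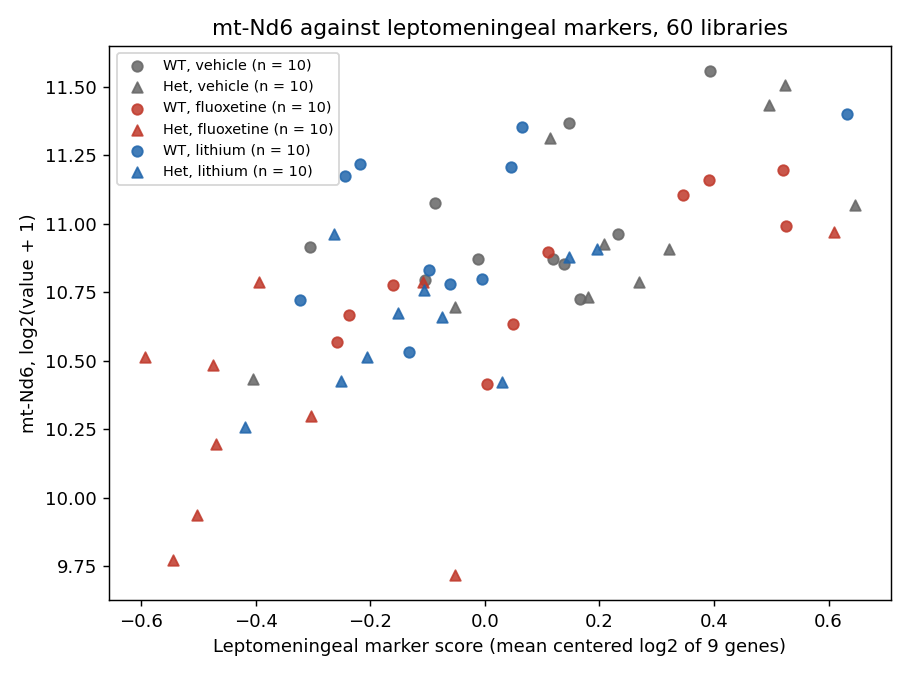
mt-Nd6 on the log2(value + 1) scale against the leptomeningeal marker score, the mean centered log2 level of 9 genes, with 1 point per library, color for treatment and shape for genotype. The 60 libraries rise together (r = 0.66), and the libraries lowest in mt-Nd6 are Het mice given fluoxetine.

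mt-Nd3 encodes a small membrane-arm subunit with a loop near the ubiquinone site. Its row rose with fluoxetine in WT males, from 1804, 1277, 1719, 1819 and 1550 under vehicle to 2248, 2538, 2632, 3084 and 2560. The groups did not overlap, and the lowest treated library stood above the highest vehicle library. The rise was 0.68 ± 0.16 with an adjusted p of 0.01157 (limma), the 1 member called of 7 beside 1.34% of all genes. It missed the threshold without vehicle replicate 2, at an adjusted p of 0.05975, and without fluoxetine replicate 4, at 0.05203. In WT females the values overlapped: 1803, 2314, 1875, 1745 and 1519 under vehicle and 2554, 2073, 2530, 1776 and 2800 under fluoxetine. There the difference was 0.34 ± 0.16 with an adjusted p of 0.2614, and limma called 0 of 7 members, with 1 at an unadjusted p under 0.05, beside 2.5% of all genes. Over both sexes of WT mice the rise was 0.51 ± 0.11, adjusted p 0.001686, as 1 of 7 called beside 8.2% of all genes.

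In Het mice the mt-Nd3 row differed by 0.15 ± 0.11 with fluoxetine over both sexes, which was not called. The effect in Het minus that in WT was −0.36 ± 0.16, with an adjusted p of 0.1738, so a difference between genotypes was not shown. Lithium over both sexes of WT mice gave 0.35 for the mt-Nd3 row, which limma did not call. DESeq2 (0.34, adjusted p 0.04332) and a limma fit of the groups compared alone (adjusted p 0.01025) called it. The sum with Gm28438 differed there by 0.05 ± 0.05 (limma adjusted p 0.625). Over the whole design fluoxetine gave 0.33 ± 0.08 (adjusted p 0.00103) and lithium gave 0.25 ± 0.08 (adjusted p 0.02061). For lithium mt-Nd3 was 1 of 7 members called beside 19.1% of all genes. Without the 16 libraries high in olfactory bulb markers these were 0.22 with an adjusted p of 0.1048 and 0.09 with an adjusted p of 0.5667, and neither was called. The 5 erythrocyte markers all rose with lithium over the whole design, with a list median of 0.72. With fluoxetine in WT males 0 of 5 passed, at a median of 0.41. They were summed at 4630 to 7035 in WT vehicle males and 5277 to 12216 in WT fluoxetine males. Their score correlated with mt-Nd3 at r = 0.38 and rho = 0.38 over the 60 libraries, with permutation p values of 0.00313 and 0.00308 and adjusted values of 0.00876 and 0.00784. It was r = 0.40 without the 2 farthest libraries and r = 0.26 within groups, on deviations from the group means. The permutations ran across all 60 libraries, so their p values include the differences between groups. The part of these markers in the mt-Nd3 result was not tested.

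Most reads that fit mt-Nd3 were listed under its nuclear copy. Gm28438 held 85.7% to 93.5% of the sum of both, with a median of 90.2%. The mt-Nd3 row had a median share of 9.11% of the sum in the 20 vehicle libraries, 10.7% in the 20 fluoxetine libraries and 10.4% in the 20 lithium libraries. In WT males the sum was 19864, 19241, 18552, 18968 and 23922 under vehicle and 23573, 21693, 23541, 22420 and 20373 under fluoxetine. These groups overlapped. The sum differed by 0.15 ± 0.07 with an adjusted p of 0.3889 in WT males and by 0.10 ± 0.05 with an adjusted p of 0.2084 in WT mice of both sexes. Over the whole design it differed by 0.08 ± 0.04 for fluoxetine (adjusted p 0.09428) and by 0.02 ± 0.04 for lithium (adjusted p 0.7411), so none of the 4 mt-Nd3 calls held for the sum. Gm28438 alone differed by 0.10 ± 0.08 in WT males with fluoxetine. The SD of log2 values over the 60 libraries was 0.29 for the mt-Nd3 row, 0.12 for the copy and 0.12 for the sum.

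**Figure D4:**
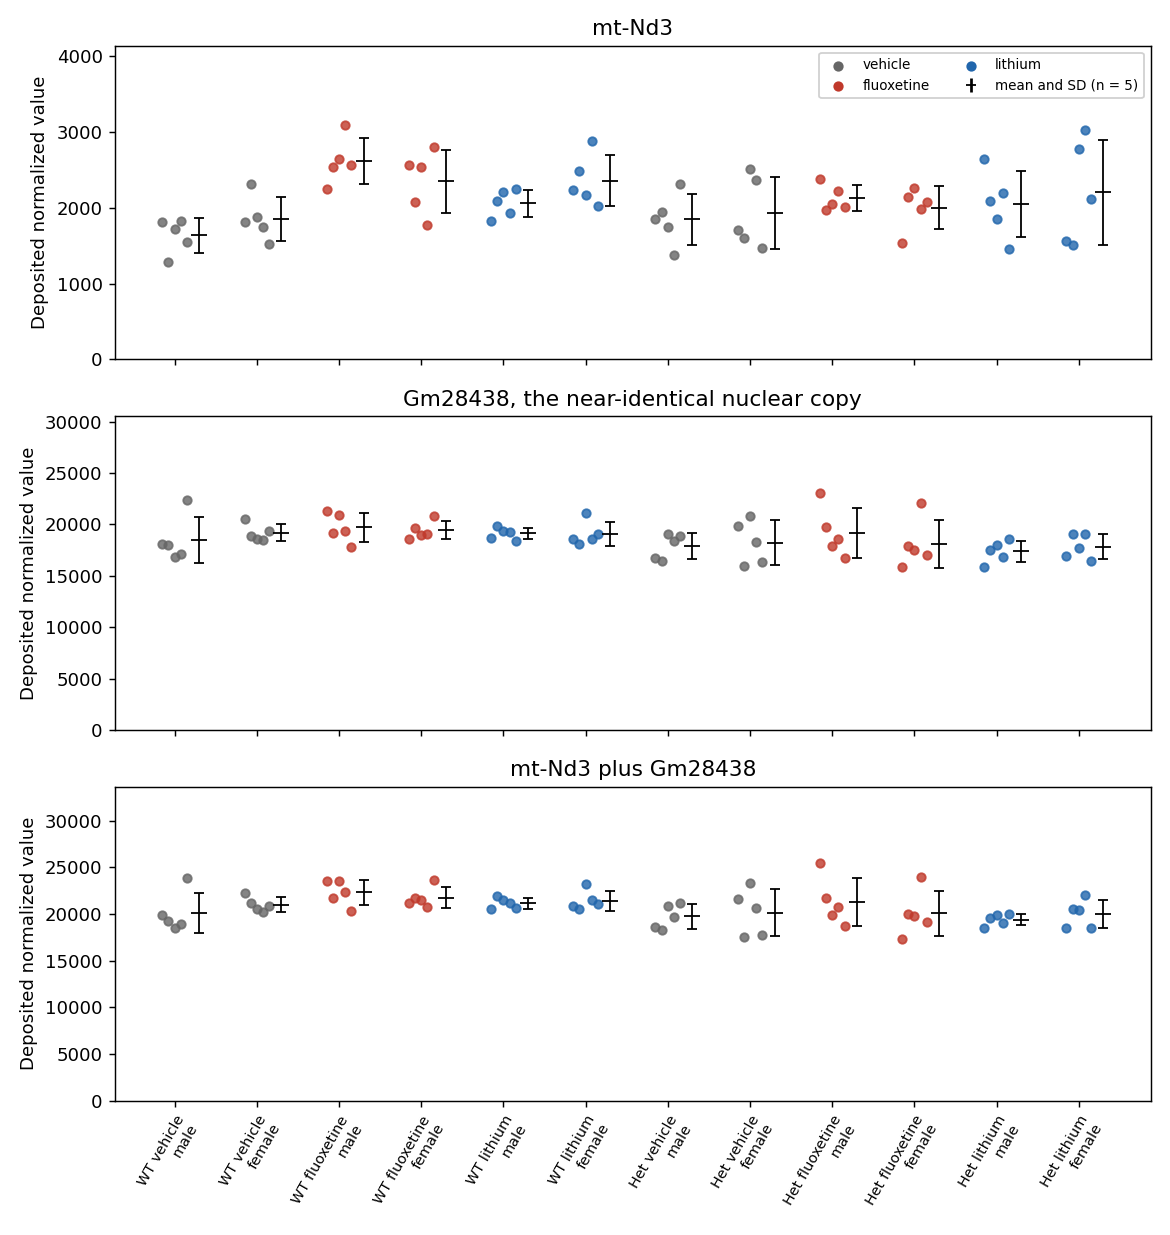
Deposited normalized values of mt-Nd3, of its nuclear copy Gm28438 and of their sum, by group, with 1 point per library, colored by treatment, and the mean and SD of 5 libraries beside them. The mt-Nd3 row is separated in WT males (vehicle up to 1819, fluoxetine from 2248), whereas the sums overlap.

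The other small member, mt-Nd4l, encodes a membrane-arm subunit whose gene runs into mt-Nd4. Its copy Gm10222 held from 0.00305% to 46.8% of the sum of both rows and stood below 100 in 7 libraries, so the division changed from library to library. The SD of log2 values was 0.36 for mt-Nd4l and 0.20 for the sum. mt-Nd4l was called in 0 of 38 comparisons, and adding its copy gave no call.

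The 4 abundant members mt-Nd1, mt-Nd2, mt-Nd4 and mt-Nd5 encode the large proteins of the membrane arm: mt-Nd2, mt-Nd4 and mt-Nd5 are antiporter-like proton pumps, and mt-Nd1 lies at the joint with the matrix arm. The limma fit called none of them in the 38 comparisons. DESeq2 called mt-Nd5 for fluoxetine against lithium in Het mice of both sexes (0.19, adjusted p 0.04203), where limma gave 0.18 ± 0.07 with an adjusted p of 0.05436. In the 10 main comparisons the differences ran from −0.05 to 0.19 for mt-Nd1, from −0.17 to 0.13 for mt-Nd2, from −0.11 to 0.14 for mt-Nd4 and from −0.16 to 0.20 for mt-Nd5. Their lowest adjusted p there was 0.1629, for mt-Nd1 and mt-Nd5 with fluoxetine in Het males. Group means of mt-Nd1 ran from 170983 ± 12517 in Het lithium males to 202224 ± 23730 in Het fluoxetine males (SD, n = 5). Over Het against WT in the whole design, mt-Nd2 differed by −0.14 ± 0.05 (adjusted p 0.1259) and mt-Nd4 by −0.11 ± 0.04 (adjusted p 0.1832), and neither passed. Without Het fluoxetine male replicate 1, mt-Nd2 was called there (−0.16, adjusted p 0.04969). With fluoxetine over the whole design, mt-Nd1 differed by 0.11 ± 0.05 (adjusted p 0.0902) and was not called. It was called at 0.13 without WT vehicle male replicate 5 (adjusted p 0.03609) and without Het vehicle female replicate 3 (adjusted p 0.03754).

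The covariate fit and the fit without the 16 libraries, both added after the data were seen, gave calls of abundant members. Since the leptomeningeal score itself differed between vehicle and fluoxetine in Het mice, the covariate fit cannot tell a drug effect apart from that difference. With the leptomeningeal score as a covariate, fluoxetine over the whole design gave calls for mt-Nd1 (0.17, adjusted p 0.003625), mt-Nd4 (0.12, adjusted p 0.02994) and mt-Nd5 (0.14, adjusted p 0.02455). In Het males the same fit gave 0.30 for mt-Nd1 and 0.31 for mt-Nd5 (adjusted p 0.0177 and 0.01849), and over both sexes of Het mice it gave 0.24 and 0.21 (adjusted p 0.01497 and 0.04282). Calls of mt-Nd1 and mt-Nd5 for fluoxetine against lithium in Het mice appeared in both fits. They were at 0.18 and 0.23 with the covariate, and at 0.23 and 0.28 without the 16 libraries high in olfactory bulb markers. Without those libraries mt-Nd5 was also called with lithium over the whole design, at −0.17 with an adjusted p of 0.04317.

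Those 4 rose and fell together between libraries. Their pairwise r over the 60 libraries ran from 0.81 between mt-Nd2 and mt-Nd5 to 0.98 between mt-Nd2 and mt-Nd4, with rho from 0.74 to 0.96. Each permutation p was 1e-05, the smallest possible, with adjusted values of 2.62e-05 and 2.33e-05 over 21 pairs, and without the 2 farthest libraries r stayed between 0.77 and 0.97. mt-Nd6 had r from 0.42 to 0.67 with them and mt-Nd4l had r from 0.335 to 0.47. The mt-Nd3 row had r from 0.22 to 0.31 with the 4 and r = −0.02 and rho = −0.06 with mt-Nd6 (permutation p 0.891 and 0.65). It leaves out the 85.7% to 93.5% of fitting reads that were listed under Gm28438. These values are therefore not those of all mt-Nd3 RNA, and r for the sum of both rows was not computed. Markers of endothelial cells and astrocytes went up with the abundant members too: mt-Nd2 had r = 0.71 with the endothelial score and r = 0.69 with the astrocyte score, each with an adjusted permutation p of 7e-05.

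**Figure D5:**
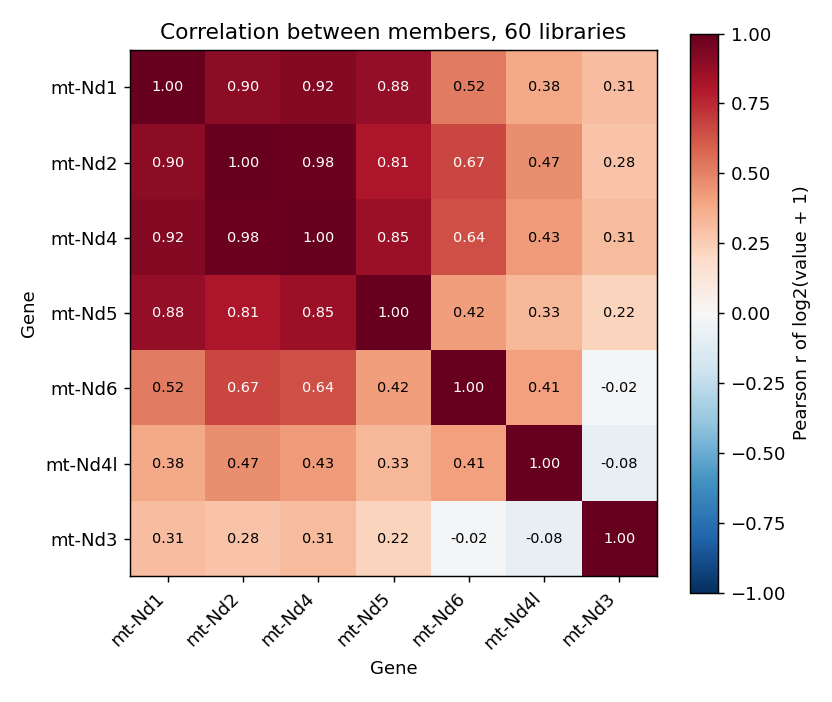
Pearson r between members over 60 libraries on the log2(value + 1) scale, from −1 (blue) to 1 (red). mt-Nd1, mt-Nd2, mt-Nd4 and mt-Nd5 form a block with r of 0.81 to 0.98, and mt-Nd6 lies between. The mt-Nd3 row, which lacks the reads listed under its copy Gm28438, stands apart.

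Among 13673 genes outside the mitochondrial genome, the profile of mt-Nd2 was most like that of Gm28438, the nuclear copy of mt-Nd3 (r = 0.91), and Gm28438 also led for mt-Nd1 (r = 0.90) and mt-Nd4 (r = 0.92). The mt-Nd3 row itself, which holds the smaller part of the reads that fit mt-Nd3, was most like the ribosomal protein gene Rps2 (r = 0.58). Megf6 and Cnih2 followed. mt-Nd5 was closest to the blood vessel genes Slco1a4 (r = 0.81), Adgrf5 (r = 0.80) and Abcb1a (r = 0.80). For mt-Nd6, the second and the third closest were Fam180a (r = 0.71) and Rorb (r = 0.69), a transcription factor gene of cortical layer neurons. Zfand6, Nfatc4 and Trim25 were closest to mt-Nd4l, with r from 0.52 to 0.58.

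The rest of the mitochondrial genome stayed uncalled with either drug. None of the 6 other mitochondrial mRNAs (mt-Co1, mt-Co2, mt-Co3, mt-Atp6, mt-Atp8 and mt-Cytb) and neither of the 2 rRNAs was called by limma in the 8 comparisons of a drug with vehicle in 1 sex. Of these 64 tests 0 had an unadjusted p under 0.05, and other tools were not run on these genes. mt-Co2, mt-Co3 and mt-Atp6 share nearly all their stretches of 31 bases with copies on chromosome 1 and are uncertain as single rows. With fluoxetine in Het females, mt-Cytb differed by −0.22 ± 0.12 (adjusted p 0.224) and mt-Co1 by −0.08 ± 0.12 (adjusted p 0.6837).

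Nuclear genes of complex I are given beside the share of all genes called in either direction in Het mice over both sexes. That share was 32.9% with fluoxetine and 9.14% with lithium. Of the 7 nuclear core subunits of the matrix arm, 6 rose and 0 fell with fluoxetine in Het mice over both sexes, with a list median of 0.16 against 0.01 for all tested genes. Examples are Ndufv2 (0.35 ± 0.05) and Ndufs3 (0.24 ± 0.05). With lithium in Het mice 5 of 7 rose. In WT mice 0 of 7 passed with fluoxetine over both sexes and 2 of 7 rose with lithium (2.97% of all genes), at list medians of 0.08 and 0.11. Of the 30 supernumerary subunits tested, 8 rose with fluoxetine in Het mice, among them Ndufc2 (0.40 ± 0.05) and Ndufb6 (0.19 ± 0.04), and 15 rose with lithium. The lithium count, of rises alone, is a larger share than that of all genes called in either direction. The fluoxetine count, also of rises alone, is not ranked against that share. Of 16 assembly factors tested, 3 rose with fluoxetine and 1 with lithium in Het mice, and these counts of rises alone are not ranked against it either. In the same fluoxetine comparison the median over the 7 mitochondrial members was −0.02.

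Genes that copy and handle mitochondrial DNA and RNA are given beside the 32.9% of all genes called in Het mice of both sexes given fluoxetine, and the share called in the first 2 lists was below it. Of 18 genes for transcription and replication 2 rose and 3 fell. Mterf1b rose by 0.45, and Polg, the mitochondrial DNA polymerase, fell by 0.17, while Polrmt, the mitochondrial RNA polymerase (−0.08 ± 0.04), and Tfam, which packages the DNA (0.09 ± 0.04), did not pass. Of 21 genes for RNA processing and stability 5 rose and 0 fell, among them Lrpprc (0.13 ± 0.03), which stabilizes mitochondrial mRNAs, the poly(A) polymerase gene Mtpap (0.20 ± 0.04) and Grsf1 (0.17 ± 0.03), an RNA-granule protein. Of 11 regulators of mitochondrial biogenesis 3 rose and 3 fell, a larger share than over all genes. Pprc1, a coactivator of the PGC-1 family, fell by 0.43 in Het mice and by 0.38 in WT mice over both sexes.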

How the data were processed

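The deposited table holds a normalized signal for 18088 genes in 60 libraries. The authors used the build GRCm38, R 3.6.0, DESeq2 1.19.11 and Salmon 0.11.2, per the submitters' processing notes, which give no roles. Within a tolerance of 0.001, 100% of values became whole reads once each column was divided by its step. The deposited signal therefore holds reads over 1 size factor per library. A count test was therefore an alternative, and the main test used log2(value + 1), which shrinks the fold of genes near 0. The 17807 genes reaching 10 in 5 or more libraries entered the test. In R 4.3.3, limma 3.58.1 (intensity trend, 1 mean per group, 48 residual degrees of freedom) gave 38 comparisons, two-sided, with Benjamini-Hochberg adjustment within each. The code was tested on simulated data. Names, coordinates and transcript sequences came from GENCODE M21.

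Alternatives were pseudocounts of 0.5 and 8, other filters and scalings, no trend, edgeR 4.0.16 and DESeq2 1.42.0 on the recovered reads, a replicate block, fits of the groups compared alone, and leaving out each replicate. Adding nuclear copies, leaving out 16 libraries and the marker covariate were chosen after seeing the data. The members and gene lists were chosen with earlier results of these data known. Named genes were the members, other mitochondrial genes, near-identical copies, Chd8, up to 4 genes per list with the smallest p (only some are printed), and the 3 genes most like each member. Polrmt and Tfam were named after their values were seen. Replicate pairs within groups (120) had a chi-square per degree of freedom of 4.12 to 70.0, all above sampling noise. All columns were used.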

Additional observations from a re-analysis of the deposited data

Results flagged for a closer look

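In 12 of 84 tests (7 members in 12 groups of 5 libraries) the highest or lowest library stood apart from its group. Chance flags about 1 in 20 of such tests. The tests are not independent, because most members rose and fell together between libraries, so the count is not ranked against that rate. WT vehicle male replicate 5 was the highest of its group for mt-Nd1 (224438, group median 164434), mt-Nd2 (147517), mt-Nd4 (265979), mt-Nd5 (191499) and mt-Nd6 (3014, group median 1871). That library also had the highest share of mitochondrial reads in its group, at 8.63%, and the highest leptomeningeal score there, at 0.39. Het fluoxetine female replicate 4 was the highest of its group for mt-Nd1 (233987), mt-Nd2 (142526) and mt-Nd4 (252381), with 8.71% mitochondrial reads. mt-Nd1 was also high in WT lithium female replicate 3 (221432). mt-Nd4l was low in WT fluoxetine male replicate 4 (12985) and high in WT lithium male replicate 1 (22472). mt-Nd6 was high in Het vehicle male replicate 3 (2545).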

How the results depend on the processing

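None of the 9 called member results turned sign under any alternative run. The mt-Nd6 fall with fluoxetine in Het females ran from −0.86 to −0.42 and was called in 13 of 15 settings. It was lost in the fit of the groups compared alone (limma adjusted p 0.06308) and with the leptomeningeal covariate (0.1906). Adding nuclear copies did not test it, because no copy was added to mt-Nd6. The fit without 16 libraries held only 3 vehicle and 2 fluoxetine libraries of Het females. The mt-Nd3 rise in WT males ran from 0.15 to 0.69 and was called in 14 of 15, but was lost with its copy added (adjusted p 0.3889). Both pseudocounts and the fit without a filter left all 266 member results the same, so those settings hardly tested the calls. Counts of members called changed as follows. The share of all genes called is given above for the main fit only, so these counts are not ranked against a share. With nuclear copies added they were 0 for fluoxetine in WT males and in WT mice of both sexes, 1 for fluoxetine and 0 for lithium over the whole design. With the leptomeningeal covariate they were 2 for fluoxetine in Het males, 0 in Het females, 2 in Het mice of both sexes (mt-Nd1 and mt-Nd5 at 0.24 and 0.21), 5 over the whole design, 0 for Het against WT under fluoxetine and over the whole design, and 2 for fluoxetine against lithium in Het mice. Fits of the groups compared alone gave 0 for fluoxetine in Het females, 1 for lithium in WT mice and 0 for Het against WT under fluoxetine. Without the 16 libraries high in olfactory bulb markers counts were 1 for lithium in Het females and 1 in Het mice, 0 for Het against WT under fluoxetine, 1 for fluoxetine and 2 for lithium over the whole design, 0 for Het against WT and 2 for fluoxetine against lithium in Het mice. DESeq2 gave 1 for lithium in WT mice and 1 for fluoxetine against lithium in Het mice, and a minimum value of 50 also gave 1 for the latter. For Het against WT over the whole design, quantile normalization, both rescalings, the fit without a trend, the replicate block and edgeR each gave 0. Leaving out 1 replicate at a time gave 0 to 3 for Het against WT under fluoxetine, 0 to 2 for Het against WT over the whole design, and 0 to 1 for fluoxetine against lithium in Het mice, for fluoxetine in Het males and in WT males and for lithium in Het mice. The cause of these changes was not tested. Quantile normalization turned the sign of 71 of 266 member results, none of them called. Replicate numbers did not pair the libraries (in 0 of 10 main comparisons did all 5 pairs correlate above 0.1), and the replicate block changed 1 call, mt-Nd6 for Het against WT over the whole design (adjusted p 0.05163). Depth limits mt-Nd6 most, at 715 to 3045 reads per library.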
